A study of Homo sapiens with 12 samples.

Results

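The heat shock chaperones of the cytosol and the mitochondrial matrix were followed here through 10 genes, named one by one, with no threshold on their response: HSPA1A, HSPA1B, HSPA8, HSPH1, HSP90AA1, DNAJB1, HSPB1, HSPD1, HSPE1 and BAG3. All 10 are listed in the count tables, in which 57736 genes are named and 27326 of these were counted at all across the 12 libraries. The level of a gene is the sum of its counts over all its listed 3′ regions. HepG2 cells (a human liver cancer line) and Ls174 cells (a human colon cancer line), both unmodified, were left untreated for 24 h or received HME, an extract of the red seaweed Hypnea musciformis, for 24 h at the labelled 0.7 mg/ml, and 3 libraries were made from each of these 4 groups. The methods call the replicates of a condition biological, and each line is a single cancer line grown in culture, so the 4 groups say nothing of normal liver or colon. The lines were grown with serum, and whether it was present during these treatments, or whether control cells received the solvent of the extract, is not stated in the sources used here.

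Chaperones of this group keep proteins folded. HSP70 proteins (HSPA1A, HSPA1B, HSPA8) bind unfolded stretches of a client protein with the help of a J-domain partner such as DNAJB1 and release them with the help of an exchange factor such as HSPH1 or BAG3. HSP90AA1 takes over clients late in folding, HSPB1 is a small heat shock protein that holds unfolded proteins without using ATP, and HSPD1 with its lid HSPE1 forms the folding chamber of the mitochondrial matrix. Heat, oxidants and proteasome blockers are known to raise many of these genes through the factor HSF1, which binds heat shock elements, inverted repeats of a short unit, in their promoters. HSPA8 is made at a steady level in most cells, while HSPA1A and HSPA1B, whose proteins are almost the same, are known for strong induction.

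The promoters of 5 genes are shown: HSPA1A, DNAJB1, BAG3 and HSPB1, which passed the unadjusted threshold in HepG2 described below, and HSPA1B as the near-identical copy of HSPA1A. RefSeq lists 14 promoter windows of 300 bases (250 before and 50 after a start site, GRCh38.p14) for the 10 genes, and all 10 matched by symbol. The 250 bases before the start are printed 5′ to 3′ on the strand of the gene, with each match to GAANNTTC, the core of the heat shock element, in capitals. This motif reads the same on both strands, so that 1 search covers both.
HSPA1A, chr6:31815293-31815542, plus strand: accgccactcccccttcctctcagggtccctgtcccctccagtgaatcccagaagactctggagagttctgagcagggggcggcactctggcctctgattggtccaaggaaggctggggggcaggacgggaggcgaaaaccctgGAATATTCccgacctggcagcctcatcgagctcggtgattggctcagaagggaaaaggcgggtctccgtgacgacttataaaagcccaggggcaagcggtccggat
HSPA1B, chr6:31827488-31827737, plus strand: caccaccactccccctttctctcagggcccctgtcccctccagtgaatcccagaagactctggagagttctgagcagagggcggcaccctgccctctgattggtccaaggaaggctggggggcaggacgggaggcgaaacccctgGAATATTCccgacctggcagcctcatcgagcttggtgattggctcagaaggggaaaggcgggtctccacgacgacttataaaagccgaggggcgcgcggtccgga
DNAJB1, chr19:14518398-14518647, minus strand: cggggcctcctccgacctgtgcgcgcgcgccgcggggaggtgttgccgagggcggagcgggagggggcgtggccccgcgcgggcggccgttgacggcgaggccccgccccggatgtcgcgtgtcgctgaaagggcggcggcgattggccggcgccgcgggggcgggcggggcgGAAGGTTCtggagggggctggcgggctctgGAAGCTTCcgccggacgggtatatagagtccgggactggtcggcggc
HSPB1, chr7:76302423-76302672, plus strand: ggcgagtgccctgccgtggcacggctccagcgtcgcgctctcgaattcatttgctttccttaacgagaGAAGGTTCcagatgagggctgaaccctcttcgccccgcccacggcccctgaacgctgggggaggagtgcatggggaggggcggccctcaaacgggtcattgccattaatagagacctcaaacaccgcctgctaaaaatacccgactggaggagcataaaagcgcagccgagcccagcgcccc
BAG3, chr10:119651130-119651379, plus strand: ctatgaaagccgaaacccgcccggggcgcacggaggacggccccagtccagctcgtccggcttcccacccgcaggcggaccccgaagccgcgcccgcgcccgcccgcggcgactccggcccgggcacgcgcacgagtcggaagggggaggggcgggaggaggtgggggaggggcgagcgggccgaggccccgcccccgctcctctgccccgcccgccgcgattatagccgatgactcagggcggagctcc

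The HSPA1A and HSPA1B windows are identical at 277 of 299 aligned bases (92.6%), and each holds GAATATTC, starting 106 and 105 bases before the start. DNAJB1 has 3 listed windows, and the one printed, which has the most matches, holds GAAGGTTC 77 and GAAGCTTC 47 bases before its start. Of the other DNAJB1 windows, 1 holds GAAGCTTC beginning 1 base after its start and 1 holds no match. HSPB1 holds GAAGGTTC 182 bases before its start. A match was present in 8 of the 14 windows and in 7 of the 10 genes (HSPA1A, HSPA1B, HSPA8, HSP90AA1, DNAJB1, HSPB1, HSPD1), against 6.77% of all 35116 windows and 8.21% of the 27305 genes in the table. Requiring 3 alternating units at the same spacing left 3 of the 10 genes (HSPA8, HSP90AA1, HSPD1), against 0.608% of all genes. HSPH1, HSPE1 and BAG3 hold no match to these letters in their windows. A match is a description of the sequence, and no binding was measured. HSPD1 and HSPE1 lie head to head on chromosome 2: the nearer of the 2 listed HSPD1 starts is 105 bases from the HSPE1 start, on the opposite strand.

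Libraries were prepared from the 3′ ends of polyadenylated RNA, so the count of a gene does not scale with its length and levels of different genes may be set side by side. This holds less well for HSP90AA1, of whose counts 2.68% to 44.9% in a library lay outside its last region. Levels are given as CPM, the usual unit of counts relative to library size, with library sizes adjusted by TMM factors over all 12 libraries. The libraries held between 1790841 and 3656662 counts, of which the 10 genes took 0.425% to 0.7%. In HepG2 all 8 hepatocyte markers had counts in every library (summed level 12900 to 21400 CPM), while the colon markers summed to 612 to 958 CPM in Ls174 and 112 to 383 CPM in HepG2. In control cells EPCAM, CDX1, CDX2 and LGALS4 were higher in Ls174, and VIL1 had the higher mean in HepG2 (136 against 62.8 CPM). KRT20, MUC2 and CEACAM5 were scarce in Ls174 control, with means of 0, 1.15 and 2.92 CPM. Ls174 control 3 and Ls174 HME 1 also held hepatocyte markers, with 127 CPM from 8 genes and 57.9 CPM from 7 genes. In HepG2 HME 2 the mesenchymal markers summed to 1080 CPM, against 26.8 to 87.1 CPM in the other HepG2 libraries. That sum came mostly from COL1A1 (551 CPM), COL1A2 (408 CPM) and SPARC (119 CPM). The other markers of that list were scarce there, with COL3A1 at 1.77 CPM and DCN and LUM at 0 CPM. HepG2 control 2 and Ls174 control 1 stood apart from their replicates, with correlations of 0.87 to 0.871 and 0.876 to 0.881, against 0.943 to 0.979 between all other replicates. In both of these libraries HSPE1 was the lowest, and HSP90AA1 and HSPB1 the highest, of their group, and the values that moved most without them are given beside the results.

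HSP90AA1 was the most abundant chaperone in every group, with mean levels of 2460, 1980, 2720 and 2200 CPM in HepG2 control, HepG2 HME, Ls174 control and Ls174 HME. It made up 35.0% to 48.6% of the summed mean level of the 10 genes, with the counts of its internal regions included. HSPE1, HSPD1 and HSPA8 followed in untreated cells of both lines. In untreated HepG2, HSPE1 (112 to 2020 CPM) overlapped HSP90AA1 (1720 to 3740 CPM) and HSPD1 (723 to 1170 CPM), and HSPD1 lay above HSPA8 (197 to 511 CPM). Untreated Ls174 had HSPA8 second (848 to 1250 CPM), overlapping HSPE1 (352 to 1000 CPM) and lying above HSPD1 (341 to 511 CPM). The inducible HSP70 genes and BAG3 were the scarcest in untreated HepG2, with means of 33.6 (HSPA1A), 23.6 (BAG3) and 14 CPM (HSPA1B). The summed level did not separate the groups: it was 5500 ± 335 CPM (SD, n = 3) in HepG2 control, 5660 ± 551 CPM in HepG2 HME, 5600 ± 1070 CPM in Ls174 control and 5220 ± 990 CPM in Ls174 HME.

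**Figure D1:**
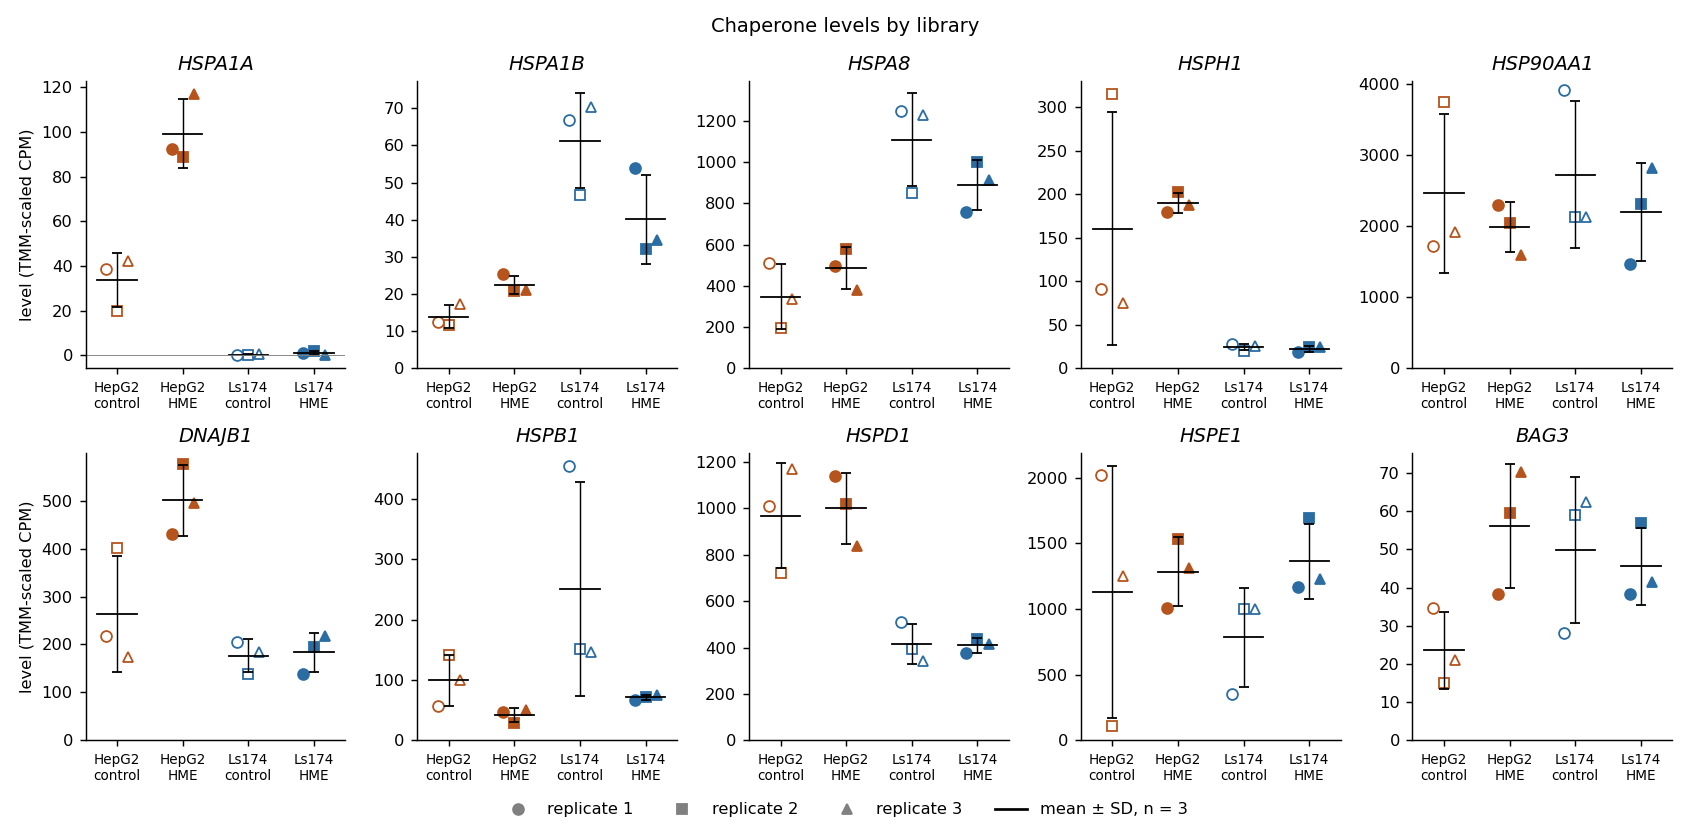
Level of each chaperone gene in each library, in TMM-scaled CPM on linear axes that include 0, by cell line and treatment (open symbols control, filled symbols HME), with the mean and SD of 3 libraries. HSPA1A rose with HME in HepG2 and was near 0 in all 6 Ls174 libraries, while HSPB1 was lower with HME in both lines and HSPE1 was lowest in HepG2 control 2 and Ls174 control 1.

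HME raised HSPA1A in HepG2 cells about 3-fold, and DNAJB1 and BAG3, both partners of HSP70, had levels about 1.9 and 2.4 times those of control cells without passing the adjusted threshold, while HSPB1 was 2.34-fold lower, which passed the unadjusted threshold alone. The abundant chaperones HSP90AA1, HSPD1 and HSPE1 had small estimates with intervals on both sides of 0. The comparison asks how the treatment changes gene activity in this line. Of the 10 genes, all of which passed the filter on low counts, 1 was higher at an adjusted p under 0.05 (2.77% of the 11343 genes tested were) and 0 were lower (0.538% of genes). At the thresholds the study used, an unadjusted p under 0.05 with a log2 fold change beyond 0.58, 3 were higher (11.3% of genes) and 1 was lower (10.9% of genes). For 4 genes every treated library lay above every control library (15.5% of genes) and for 1 gene below (15.3% of genes). The median log2 fold change of the 10 genes was 0.37, and that of all genes tested was -0.04. The libraries come from whole cultures, in which fewer cells of a kind and less RNA per cell cannot be told apart. The summed level of the hepatocyte markers was also lower with HME, at 12900 to 14100 CPM against 18200 to 21400 CPM in control cells, and its part in these results was not tested.

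Among the HSP70 genes, HSPA1A had 38.5, 19.9 and 42.4 CPM in HepG2 control 1, 2 and 3 and 92.2, 88.7 and 117 CPM in HME 1, 2 and 3. The groups did not overlap, and a wide gap lay between the highest control and the lowest treated library. The log2 fold change was 1.57 (SE 0.35, edgeR quasi-likelihood test with Benjamini-Hochberg adjustment, adjusted p = 0.04), a 2.98-fold rise. The call is close to its threshold. It was lost with scaling by library size (adjusted p = 0.081) or upper quartile (0.0542), with the replicate block (0.0501) and when any library other than HepG2 control 2 was left out, while the fold change stayed between 1.36 and 1.76 on the log2 scale and the adjusted p between 0.00165 (DESeq2) and 0.17. Without HepG2 control 2 it was 1.36 (adjusted p = 0.0119), and without HepG2 HME 2, the library with high COL1A1 and COL1A2, 1.67 (adjusted p = 0.108). HSPA1B went from 12.6, 11.8 and 17.4 CPM to 25.3, 20.9 and 21.0 CPM, again with no overlap but with a smaller and less certain difference (log2 fold change 0.70, SE 0.33, edgeR adjusted p = 0.245). HSPA8 had 511, 197 and 337 CPM in control and 498, 581 and 382 CPM in treated cells, and these groups overlapped (log2 fold change 0.51, SE 0.38, edgeR adjusted p = 0.451).

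DNAJB1, the J-domain protein that stimulates the ATPase of HSP70, had 217, 401 and 173 CPM in control and 430, 577 and 494 CPM in treated HepG2 cells. HepG2 control 2 was close to the treated libraries, and the other controls were far below them. Over all libraries its log2 fold change was 0.91 (SE 0.40, edgeR adjusted p = 0.213), past the unadjusted threshold. BAG3, a co-chaperone that releases clients from HSP70 and links it to autophagy, had 34.7, 15 and 21.0 CPM in control and 38.4, 59.4 and 70.3 CPM in treated cells. Its groups nearly touched, and its log2 fold change was 1.25 (SE 0.38, edgeR adjusted p = 0.104, range over alternatives 0.0345 to 0.319). HSPH1, the HSP110 exchange factor, had 90.9, 315 and 75.6 CPM in control and 180, 202 and 187 CPM in treated cells. The treated libraries lay close together between HepG2 control 2 and the other controls, and the log2 fold change was 0.21 (SE 0.54, edgeR adjusted p = 0.838).

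HepG2 control 2 decided the result of both HSPH1 and DNAJB1. Without it, HSPH1 rose by a log2 fold change of 1.25 (SE 0.23, edgeR adjusted p = 0.0136, range over alternatives 0.0136 to 0.973), and DNAJB1 by 1.43 (SE 0.25, adjusted p = 0.011, range over alternatives 0.011 to 0.448). With HSPA1A, 3 of the 10 genes then had an adjusted p under 0.05, against 7.74% of the 11899 genes tested in that fit. BAG3 had a log2 fold change of 1.06 there (adjusted p = 0.0867). This library held 1874122 counts, the lowest number in its group. HSPH1 and DNAJB1 were both high and HSPE1 and HSPA8 both low in it: it had 0.787 HSPH1 counts per DNAJB1 count against 0.419 and 0.437 in the other controls, and 0.493 HSPA8 counts per DNAJB1 count against 2.35 and 1.95.

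**Figure D2:**
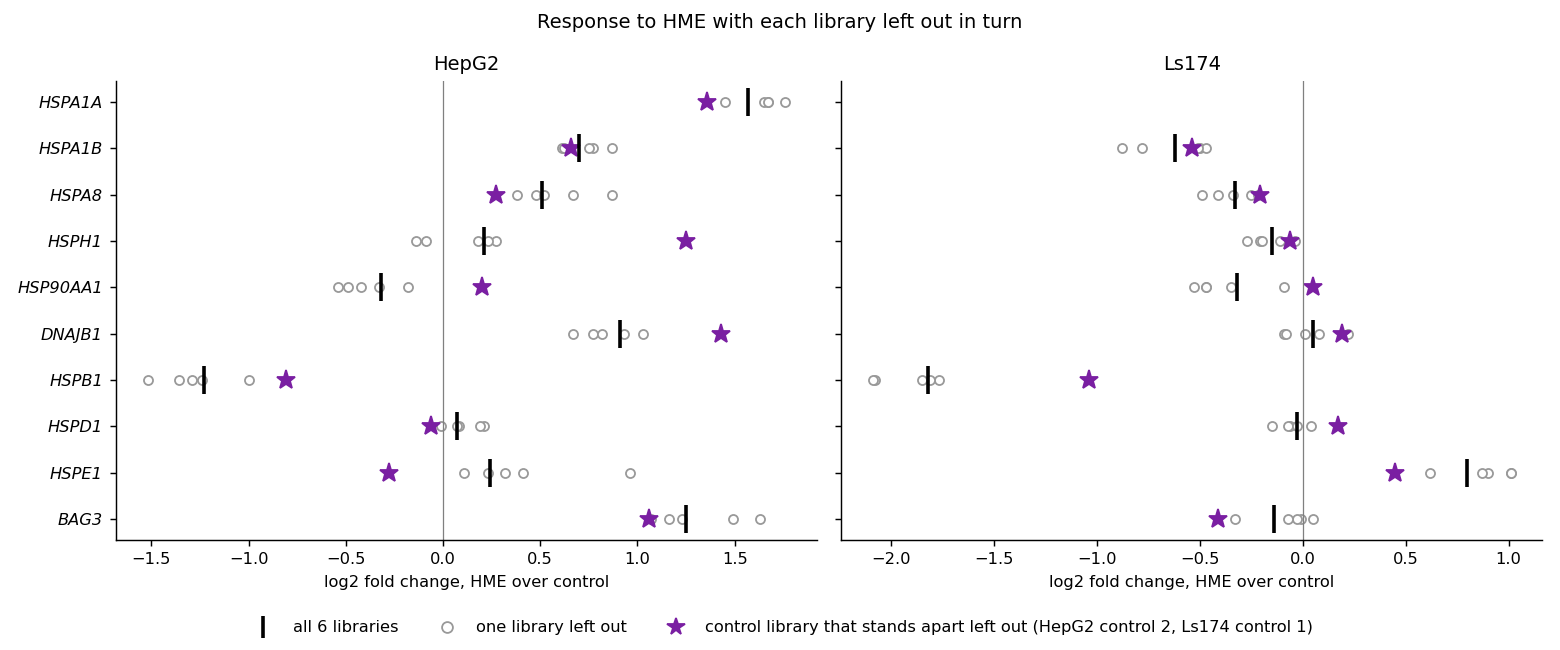
Log2 fold change of HME over control for each chaperone gene with all 6 libraries of a line (black bar), with one library left out (open circles) and without the control library that stands apart (star), in HepG2 (left) and Ls174 (right). In HepG2 the star moves HSPH1 from 0.21 to 1.25 and DNAJB1 from 0.91 to 1.43, and in Ls174 it moves HSPB1 from -1.82 to -1.04.

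HSPB1, the small heat shock protein also known as HSP27, had 56.5, 141 and 101 CPM in control and 47.5, 29.3 and 51.0 CPM in treated HepG2 cells. Each treated library was below each control, with HepG2 control 1 only slightly above HME 3. The log2 fold change was -1.23 (SE 0.42, edgeR adjusted p = 0.133, range over alternatives 0.0524 to 0.375). Without HepG2 control 2 it was -0.81 (adjusted p = 0.158), and without HepG2 HME 2, which had the lowest level, -1.0 (adjusted p = 0.375).

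HSP90AA1 had 1720, 3740 and 1920 CPM in control and 2300, 2050 and 1600 CPM in treated HepG2 cells (log2 fold change -0.32, 95% interval -1.24 to 0.59). HepG2 control 2 was again the extreme, and without it the estimate changed sign to 0.20. In the mitochondrial matrix, HSPD1 had 1010, 723 and 1170 CPM in control and 1140, 1020 and 838 CPM in treated cells (log2 fold change 0.07, 95% interval -0.64 to 0.77). Its partner HSPE1 had 2020, 112 and 1250 CPM in control and 1010, 1530 and 1310 CPM in treated cells. The single low value in HepG2 control 2 left the HSPE1 interval wide (log2 fold change 0.24, 95% interval -1.40 to 1.87), and without that library the estimate was -0.28 (SE 0.29, edgeR adjusted p = 0.602). HSPE1 had 0.154 counts per HSPD1 count in HepG2 control 2 and 0.89 to 2.01 in the other HepG2 libraries.

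In Ls174 cells HSPB1 was 3.53-fold below its control level with all libraries and less without 1 of them, HSPE1 was higher in every treated library and HSPA1B had a lower mean, and none of these passed the adjusted threshold. The other 6 genes tested had small estimates. The summed level of the colon markers was also lower with HME in this line, at 612 to 665 CPM against 750 to 958 CPM in control cells, and its part in these results was not tested. EPCAM made the largest part of that sum (mean 535 CPM in control, 343 CPM with HME), while LGALS4 went the other way (67.7 and 101 CPM). Of the 6 colon markers tested, 4 had a negative and 2 a positive log2 fold change. The same question as for HepG2 is asked of the colon line. HSPA1A, at 0 to 5 counts in these libraries, did not pass the filter, and 9 genes were tested. At an adjusted p under 0.05, 0 were higher (0.318% of the 11319 genes tested) and 0 lower (0.866% of genes) with edgeR, while DESeq2 called 1, HSPB1 (3.83% of genes). At an unadjusted p under 0.05 with a log2 fold change beyond 0.58, 0 were higher (4.11% of genes) and 1 was lower (7.85% of genes). The median log2 fold change of the 9 genes was -0.16, and that of all genes tested was 0.00. Treated libraries lay above all controls for 1 gene, HSPE1 (11.6% of genes), and below for 1, HSPB1 (12.2% of genes).

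HSPB1 had 455, 151 and 146 CPM in Ls174 control 1, 2 and 3 and 67.4, 71.8 and 75.6 CPM in HME 1, 2 and 3. The treated libraries were close together and below every control. Over all libraries the log2 fold change was -1.82 (SE 0.45, edgeR adjusted p = 0.112), past the unadjusted threshold. Without Ls174 control 1, which stands apart and holds the highest level, the fall was smaller but more certain, by 1.04 on the log2 scale (SE 0.16, edgeR adjusted p = 0.000496), and it was then 1 of 979 genes (8.39% of those tested) with an adjusted p under 0.05. DESeq2 on all libraries gave an adjusted p of 0.00421, and over the alternatives the value ran from 2.96e-08 to 0.504. HSPB1 was thus the single gene of the 10 whose treated libraries lay below the controls in both lines. The share of all genes that did so in both lines was not counted. The difference between the responses of HSPB1 was 0.59 (SE 0.62, edgeR adjusted p = 0.765).

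HSPE1 had 352, 1000 and 1000 CPM in control and 1170, 1690 and 1230 CPM in treated Ls174 cells, with no overlap (log2 fold change 0.80, SE 0.38, edgeR adjusted p = 0.403). Without Ls174 control 1 the estimate was 0.45 (adjusted p = 0.171). HSPA1B had 66.9, 46.6 and 70.4 CPM in control and 53.9, 32 and 34.5 CPM in treated cells. These groups overlapped, and the log2 fold change was -0.62 (SE 0.28, edgeR adjusted p = 0.379). The other 6 genes (HSPA8, HSPH1, HSP90AA1, DNAJB1, HSPD1 and BAG3) had log2 fold changes between -0.33 and 0.05, with overlapping groups and adjusted p values between 0.566 and 0.967. For DNAJB1, with 206, 139 and 184 CPM in control and 138, 195 and 218 CPM in treated cells, the 95% interval was -0.51 to 0.61, and for BAG3, with 28.0, 59.0 and 62.5 CPM and 38.3, 56.9 and 41.4 CPM, it was -0.86 to 0.58.

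**Figure D3:**
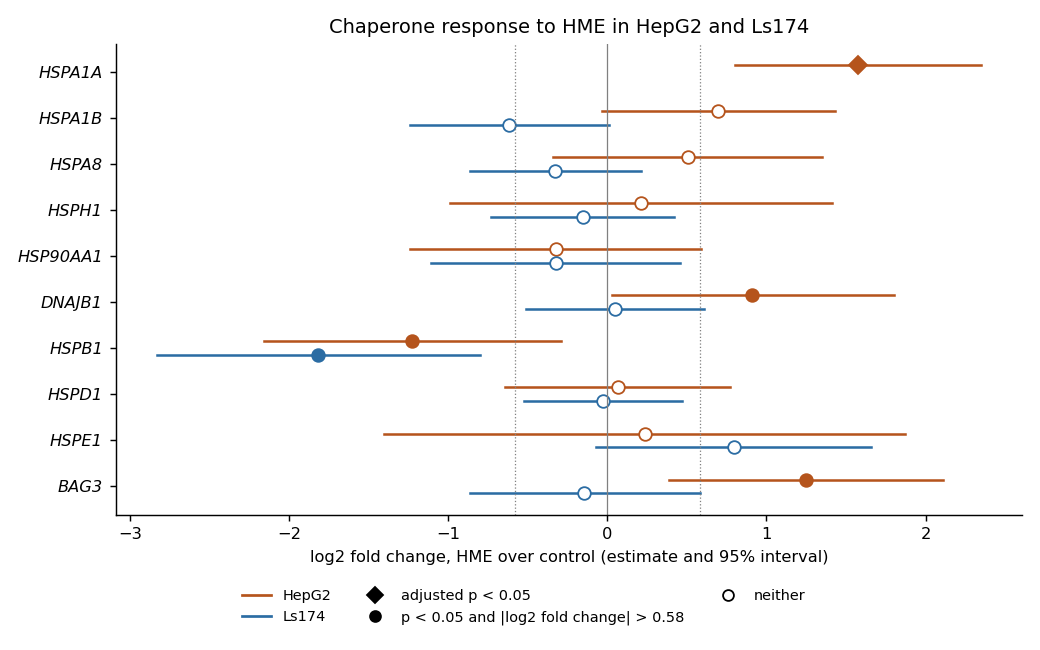
Log2 fold change of HME over control with its 95% interval for each chaperone gene in HepG2 and Ls174 (diamond, adjusted p under 0.05; filled circle, unadjusted p under 0.05 and log2 fold change beyond 0.58, marked by dotted lines; open circle, neither; HSPA1A was not tested in Ls174). HSPA1A carries the one diamond, and HSPB1 lies left of 0 in both lines.

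Whether the response of a gene differs between the lines was tested by the interaction in a fit of all 12 libraries. No gene of the 10 had an adjusted p under 0.05 with a stronger response in HepG2 (0.613% of the 13040 genes tested) or in the other direction (0.0307% of genes), and DESeq2 called 0 as well. At an unadjusted p under 0.05 and a difference beyond 0.58, 2 genes responded more positively in HepG2 (7.42% of genes) and 0 less (5.75% of genes). They were HSPA1B, with a difference of 1.29 (SE 0.43, edgeR adjusted p = 0.21), and BAG3, with 1.36 (SE 0.54, adjusted p = 0.286). HSPA1B had opposite signs in the lines (0.70 and -0.62), each short of the threshold by itself. With HepG2 control 2 and Ls174 control 1 left out, HSPH1 responded more in HepG2 by 1.23 (SE 0.30, edgeR adjusted p = 0.0375, range over alternatives 0.0375 to 1), 1 of 433 genes (3.25% of those tested), and DNAJB1 by 1.15 (adjusted p = 0.0809). The interaction for HSPA1A (difference 0.13, range over alternatives -0.51 to 0.92) rests on 3 control and 8 treated counts in Ls174. These are too few to compare the responses.

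The lines themselves differed in the levels of several chaperones. Untreated HepG2 held more HSPA1A, HSPH1 and HSPD1 and less HSPA1B and HSPA8 than untreated Ls174, so that 3 genes were higher (14.2% of the 11907 genes tested) and 2 lower (9.33% of genes) at an adjusted p under 0.05. In treated cells 4 were higher in HepG2 (28.6% of 11914 genes), DNAJB1 joining HSPA1A, HSPH1 and HSPD1, and 3 lower (26.0% of genes), HSPB1 joining HSPA1B and HSPA8. The treated libraries are other libraries than the untreated ones, and each of the 5 genes called in untreated cells was called in the same direction in treated cells. The treated comparison called many genes (28.6% higher and 26.0% lower), and how many of all genes repeat was not counted. The repeat is therefore not shown to be particular to these genes.

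HSPH1 had a difference in log2 levels of 2.76 (SE 0.60, edgeR adjusted p = 0.00893), a 6.76-fold higher level in untreated HepG2, and of 3.11 (SE 0.20, adjusted p = 4.34e-07) in treated cells. The Ls174 libraries lay between 18.6 and 27.5 CPM, below the lowest HepG2 library (75.6 CPM), and without both libraries that stand apart the untreated difference was 1.85 (adjusted p = 8.14e-05). HSPD1 was 2.38-fold higher in untreated HepG2 (difference 1.25 on the log2 scale, SE 0.36, edgeR adjusted p = 0.0323) and 2.47-fold higher in treated HepG2 (adjusted p = 0.000273). Its Ls174 levels were 511, 393 and 341 CPM without and 375, 438 and 417 CPM with HME, all below every HepG2 library. The untreated HSPD1 call was lost when HepG2 control 1 or 3 or Ls174 control 2 or 3 was left out (adjusted p = 0.0775, 0.0996, 0.148 and 0.139), with differences of 1.11 to 1.24, and also with scaling by library size (0.0691) and the replicate block (0.135). HSPE1, the partner of HSPD1 in the same complex, differed by 0.53 (SE 0.83, edgeR adjusted p = 0.698) and by -0.06 (SE 0.24, adjusted p = 0.847). Without HepG2 control 2 and Ls174 control 1, HSPE1 was higher in untreated HepG2 by 0.73 (SE 0.27, edgeR adjusted p = 0.0432, range over alternatives 0.0432 to 0.985). The libraries held 2.55 to 3.86 HSPE1 counts per HSPD1 count in Ls174 except control 1 (0.688), and 0.89 to 2.01 in HepG2 except control 2.

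HSPA8, the constitutive HSP70, was 3.14-fold lower in untreated HepG2 than in untreated Ls174 (difference -1.65, SE 0.42, edgeR adjusted p = 0.0205) and 1.80-fold lower in treated cells (adjusted p = 0.0075). Its Ls174 levels were 1250, 848 and 1230 CPM without and 757, 999 and 913 CPM with HME, and no HepG2 library reached them. Its untreated call was lost without HepG2 control 3 (adjusted p = 0.0809) or Ls174 control 3 (adjusted p = 0.0628). DNAJB1 did not pass the threshold between untreated lines (difference 0.63, SE 0.41, edgeR adjusted p = 0.321), and was 2.77-fold higher in HepG2 with HME (adjusted p = 0.00023). HSPB1 was lower in HepG2 in untreated (-1.29, SE 0.55, edgeR adjusted p = 0.131) and treated cells (-0.74, SE 0.22, adjusted p = 0.0165, and 0.0538 without Ls174 HME 3). BAG3 had a difference of -1.05 between untreated lines (SE 0.44, adjusted p = 0.125) and of 0.31 (SE 0.25, adjusted p = 0.324) between treated ones. Without HepG2 control 2 and Ls174 control 1 both genes were lower in untreated HepG2, HSPB1 with a difference of -0.90 (SE 0.27, edgeR adjusted p = 0.0173, range over alternatives 0.0173 to 0.406) and BAG3 with -1.09 (SE 0.28, adjusted p = 0.00681, range 0.00681 to 0.343), and without Ls174 control 1 alone BAG3 had an adjusted p of 0.0411. In that fit without both libraries 8 of the 10 genes had an adjusted p under 0.05, against 44% of the 12790 genes tested. HSP90AA1 differed by -0.10 (95% interval -1.18 to 0.98) and -0.13 (95% interval -0.74 to 0.48), with overlapping levels.

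**Figure D4:**
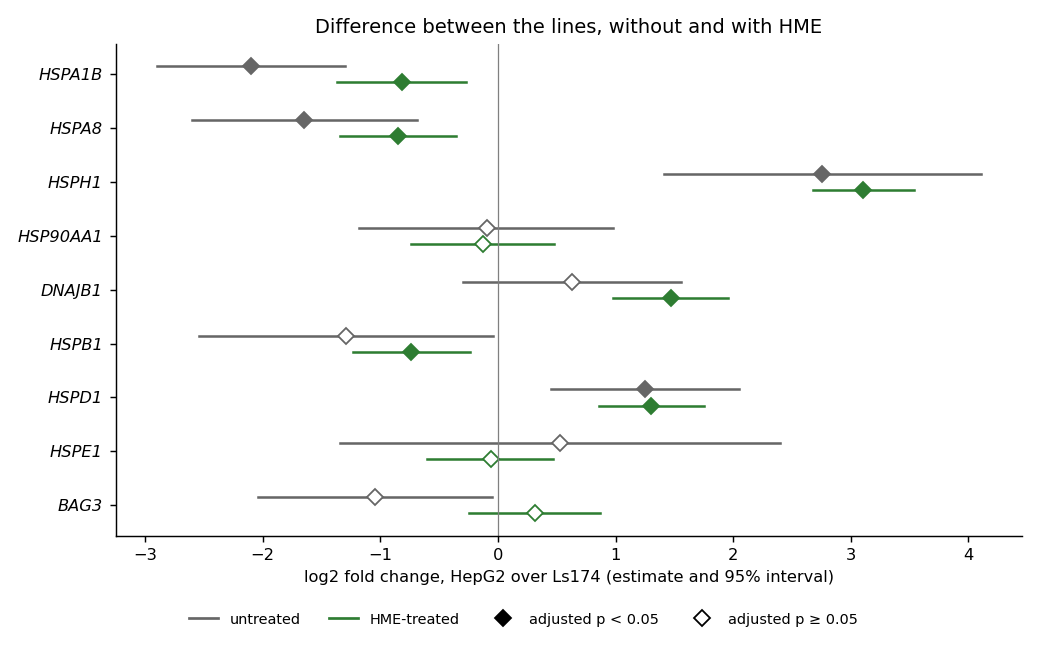
Difference in log2 level between HepG2 and Ls174 with its 95% interval for 9 chaperone genes, in untreated (grey) and HME-treated (green) cells, filled where the adjusted p was under 0.05 (HSPA1A is left out, since Ls174 holds almost none). HSPH1 and HSPD1 lie right of 0 and HSPA1B and HSPA8 left of 0 in both comparisons, and DNAJB1 moves from 0.63 to 1.47.

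The near-identical pair HSPA1A and HSPA1B showed the sharpest contrast between the lines. HSPA1A made up 62.7% to 84.7% of the counts of both genes in each HepG2 library, the lowest share being that of HepG2 control 2 (exact 95% interval 48.1% to 75.9%, 51 counts). Ls174 held 0, 1 and 2 counts of HSPA1A beside 136, 150 and 275 of HSPA1B in control cells, and 3, 5 and 0 counts beside 148, 90 and 105 in treated cells. The share there was 0.0% to 5.26%, with no interval reaching above 11.9%. Intervals cover counting error only. Summed over libraries and scaled by their effective sizes, untreated HepG2 had 110-fold the HSPA1A counts of untreated Ls174 (280 against 3 counts, 95% counting interval 37.1 to 534), and treated HepG2 had 104-fold those of treated Ls174 (678 against 8 counts, 52.3 to 241). The group of untreated Ls174 libraries had at most 2 counts in a library and is at the floor of the measurement, where 3 counts correspond to up to 1.48 CPM. Of the Ls174 libraries with an HSPA1A count, control 3 (2 counts) and HME 1 (3 counts) were those with hepatocyte markers from 7 or 8 genes. Control 2 (1 count) held 1 of those markers at 0.31 CPM, and HME 2 (5 counts) held 0 counts of them.

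HSPA1B took the opposite direction: it was 4.28-fold lower in untreated HepG2 than in untreated Ls174 (edgeR adjusted p = 0.00236) and 1.76-fold lower in treated cells (adjusted p = 0.017, and 0.0688 without Ls174 HME 1). When the genes were summed as one, the untreated lines differed by -0.34 on the log2 scale (SE 0.35, edgeR adjusted p = 0.544), and the sum differed with HME in HepG2 by 1.37 (SE 0.32, adjusted p = 0.0522) and was -0.59 in Ls174 (SE 0.27, adjusted p = 0.388). The difference between these responses was 1.93 (SE 0.43, edgeR adjusted p = 0.0621). Both genes are counted in a single 3′ region each, at 6:31785460-31785920 and 6:31797654-31798031 (GRCh37, plus strand), and none of the 412 stretches of 50 bases in the HSPA1A region occurs in that of HSPA1B. The regions are 74.9% identical over 307 aligned bases. Reads of 50 bases that lie within them and match exactly can thus be told apart between these regions. Matches elsewhere in the genome were not searched. How reads with several alignments were handled is not stated.

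**Figure D5:**
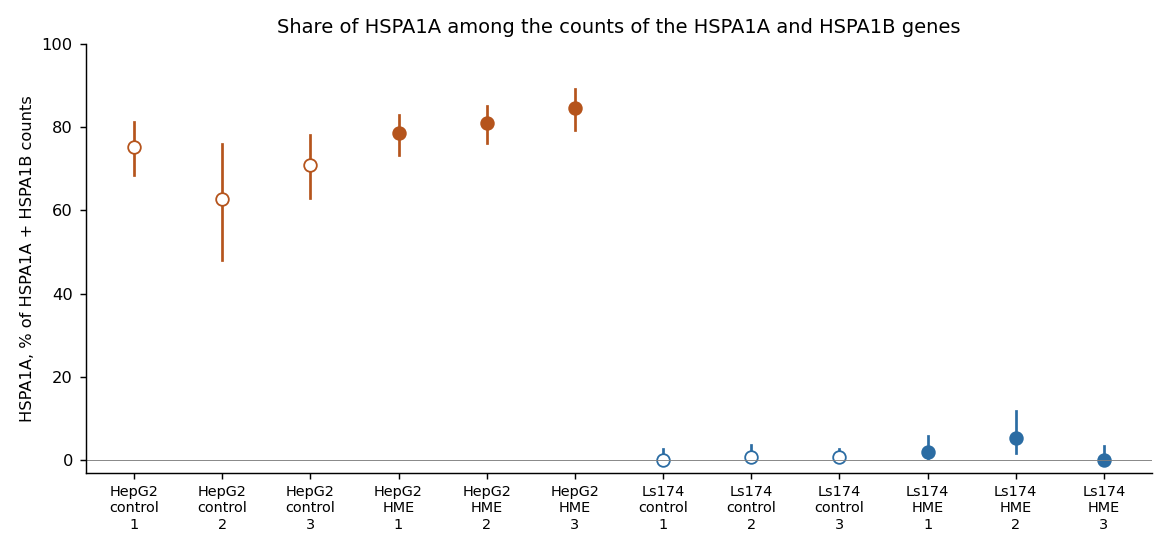
Share of HSPA1A among the counts of HSPA1A and HSPA1B in each library, in percent with its exact 95% binomial interval (open symbols control, filled symbols HME). All HepG2 libraries lie between 62.7% and 84.7%, and all Ls174 libraries between 0.0% and 5.26%.

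Most of the genes were measured at the annotated end of the transcript. The region with the most counts held 99.4% or more of the gene's counts for HSPA1A, HSPA1B, HSPA8, DNAJB1, HSPB1, HSPD1 and BAG3, and each of these regions overlaps the 3′ UTR of its gene in the GENCODE annotation of GRCh37. For BAG3 (10:121436795-121437528, plus strand) and HSPD1 (2:198351108-198351769, minus strand) the region holds no coding base, and for HSPB1 (7:75933301-75933809, plus strand) it holds 187 coding and 125 UTR bases. HSP90AA1 was the exception: its last region (14:102546878-102548048, minus strand) held 76.4% of its counts, with 55.1% to 97.3% depending on the library. Neighbouring internal regions of HSPH1 (13:31714321-31714446 and 13:31715259-31715396) differed by at most 2 counts in each library, with up to 41 counts, so a read that spans both may be counted more than once. The same may hold for neighbouring internal regions of HSP90AA1 (14:102551018-102551335 and 14:102551635-102551726), with 9.21% and 7.7% of its counts. They held 755 and 604 counts in HepG2 control 1 and 1198 and 1050 in HepG2 HME 1. With the largest region of each gene alone, HSPH1 had a log2 fold change of 0.04 in HepG2 (edgeR adjusted p = 0.973). HSPE1 held 85.2% in its last region (2:198367901-198368378, plus strand). Pseudogenes took 11.5% of the counts of HSPD1 and its pseudogenes together over all libraries (up to 17% in a library). The share was 6.83% for HSPE1 (up to 15.2%), 4.47% for HSPB1 (up to 7.38%) and 2.96% for HSPA8 (up to 8.91%). HSPE1-MOB4, listed as a separate gene, held 73 to 777 counts in a library. The levels of these genes are uncertain for this reason, and the shares set no bound, since the handling of reads with several alignments is not stated.

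Within lines the genes did not move as 1 group. Over the 12 libraries, centred on the mean of each line, HSPH1 and DNAJB1 were most alike (Pearson r = 0.84), and HSP90AA1 and HSPE1 least (r = -0.79). Without HepG2 control 2 and Ls174 control 1, over 10 libraries, HSPH1 had r = 0.98 with DNAJB1 and 0.82 with BAG3, while HSP90AA1 and HSPE1 had r = -0.1, so that their likeness of -0.79 rested on those libraries. These are descriptions across libraries that share treatment and depth. Among 9872 genes, those nearest to HSPA1A over 12 libraries were SLC25A6 (r = 0.94), CEBPZ (0.924) and CDC37L1 (0.914), nearest to DNAJB1 were LPIN1 (0.947), ZBTB38 (0.925) and CDKN2D (0.913), and nearest to HSPB1 were CPSF7 (0.982), YIPF1 (0.97) and NUCB1 (0.957). HSPE1 lay nearest to PARP4 (0.991), NDUFC1 (0.988) and PPA2 (0.983), and the mean of the 10 genes to TNFRSF1A (0.957). Most of these neighbours changed over the 10 libraries: the nearest became CEBPZ for HSPA1A (0.938), AGPAT9 for DNAJB1 (0.983) and KPNA4 for the mean (0.965), while CPSF7 for HSPB1 (0.968) and PARP4 for HSPE1 (0.935) stayed first. For these neighbours the line means of all 12 libraries were kept, so the left-out libraries still bear on their values. The correlations among the 10 genes were centred anew on the 10 libraries, and both kinds are not directly comparable.

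The wider chaperone network was read from 9 lists of 90 related genes. In HepG2, 77 were tested, of which 3 were higher and 0 lower at an adjusted p under 0.05 (2.77% and 0.538% of all genes tested), and 11 were higher and 1 lower at the unadjusted threshold (11.3% and 10.9% of all genes), with a median log2 fold change of 0.21. HSF2, a heat shock factor, went from 37.1, 29.9 and 39.2 CPM to 80.3, 101 and 87.7 CPM (log2 fold change 1.36, SE 0.29, edgeR adjusted p = 0.0364). DNAJB4, a J-domain partner of HSP70 close to DNAJB1, went from 2.42, 0.623 and 2.42 CPM to 16.6, 15.2 and 18.6 CPM (log2 fold change 3.09, SE 0.48, adjusted p = 0.00993). GRPEL2, a nucleotide exchange factor of the mitochondrial HSP70, went from 9.95, 10.6 and 9.30 CPM to 55.4, 25.8 and 25.8 CPM (log2 fold change 1.86, SE 0.41, adjusted p = 0.04). The calls of HSF2 and GRPEL2 were lost with scaling by library size, with the replicate block and when any library other than HepG2 control 2 was left out, with adjusted p values up to 0.151 and 0.142 and log2 fold changes of 1.19 to 1.45 and 1.41 to 2.06, and that of DNAJB4 was lost without HepG2 HME 3 (0.0597). None of the 3 had overlapping groups, and DNAJB4 was below the value of 3 counts in HepG2 control 2.

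By list, 4 of 15 tested J-domain genes were higher at the unadjusted threshold (DNAJB4, DNAJA1, DNAJA2 and DNAJB6), as were 3 of 16 HSP90 co-chaperones (AHSA1, CDC37L1 and SUGT1, with AHSA2 lower) and 2 of 14 chaperonin and prefoldin genes (PFDN1 and PFDN4). The share of all genes higher at this threshold was 11.3%. CDC37L1, a relative of the kinase co-chaperone CDC37, had a log2 fold change of 1.44 (SE 0.35, edgeR adjusted p = 0.0559). None of the 6 other HSP70 and HSP110 genes, 2 other HSP90 genes, 3 other small heat shock genes or 11 mitochondrial protease and import genes tested passed either threshold in HepG2. Of these, HSPA13, a microsomal HSP70, had a log2 fold change of 0.83 (SE 0.54), HSPA9, the mitochondrial HSP70, 0.38 (SE 0.36), HSP90AB1, the constitutive HSP90, -0.16 (SE 0.35), TRAP1, the mitochondrial HSP90, -0.24 (SE 0.34), and HSPB8, a partner of BAG3, 0.87 (SE 0.41). HSPB11 had -0.43 (SE 0.58), the paraplegin gene SPG7 -0.56 (SE 0.28) and PMPCA, a subunit of the mitochondrial processing peptidase, 1.11 (SE 0.86). PMPCA had 46.5, 69.8 and 27.9 CPM in control and 26.1, 264 and 21 CPM in treated cells. Its positive estimate rested on HepG2 HME 2, and it fell as low as -1.01 with a library left out. HSF1, the main factor of the heat shock response, had 65.1, 36.1 and 46.9 CPM in control and 73.6, 62.9 and 74.5 CPM in treated HepG2 cells, with overlapping groups. HSPA6, an HSP70 gene that is silent in most unstressed cells, was at 0 in HepG2 control and in all Ls174 libraries and at 0.791, 3.18 and 1.20 CPM in treated HepG2 cells, where 3 counts correspond to 1.06 to 1.80 CPM.

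In Ls174, 75 of the 90 related genes were tested and 0 had an adjusted p under 0.05, with 5 higher (DNAJA3, DNAJC7, PFDN1, PFDN2 and TIMM44) and 1 lower (FKBP5) at the unadjusted threshold (4.11% and 7.85% of all genes) and a median of 0.09. HSPA13 had a log2 fold change of -0.55 (SE 0.24), HSPA4L -0.21 (SE 0.27), HSP90AB1 -0.61 (SE 0.38), BAG6 0.58 (SE 0.22), HSPBP1 -0.37 (SE 0.30) and CHORDC1 -0.46 (SE 0.20). HSF2 there had 36.9, 45 and 40.5 CPM in control and 43.7, 50.1 and 61.1 CPM in treated cells. The difference between the lines in its response was 1.0 (SE 0.35, edgeR adjusted p = 0.231), and for GRPEL2 it was 1.61 (SE 0.45, adjusted p = 0.143), so that neither was shown to respond differently in the lines after adjustment.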

How the data were processed

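RNA of HepG2 and Ls174 cells (3 control and 3 HME-treated libraries each) was sequenced by the authors with a 3′ mRNA kit on an Ion Proton instrument, aligned to hg19 (GRCh37) with Hisat2 and analysed with metaseqR2, versions not given in the sources used here. The submitters' processing notes also name Bowtie2 and Trimmomatic, without their role. The deposited tables hold raw counts per 3′ region (144910 regions), and no further normalization was applied by the authors to these values. How reads with several alignments or on the opposite strand were counted is not given in the sources used here. The labels give the extract at 0.7 mg/ml, the methods a slightly higher concentration.

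Counts were summed per gene and tested with edgeR 4.0.16 in R 4.3.3 (TMM, filterByExpr by group, quasi-likelihood F test, Benjamini-Hochberg adjustment over all tested genes, two-sided). Each comparison used its own 6 libraries, and the interaction all 12. The study's methods name a binomial test, run here on counts summed over replicates as an alternative, which holds no replicate error, as were DESeq2 1.42.0, other scalings and filters, the largest region of each gene alone (chosen after seeing the data) and each library left out. Tables and figures used Python 3.11.15 and matplotlib 3.10.9. The tests were tried on simulated data with 200 changed genes per comparison. No batch is given in the labels, and no libraries were duplicates. The 10 genes, the lists of related genes and markers, and the genes named (all 10 members, and from each list the genes with an adjusted p under 0.05 within a line, otherwise the 2 with the smallest p in each line; for likeness the 3 with the largest r) were chosen with earlier results of these data known. DNAJA1, DNAJA2, SUGT1, AHSA1 and HSPA6 fall outside this rule and were chosen after their values were seen. Protein sequences were not used here.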

Additional observations from a re-analysis of the deposited data

How the results depend on the processing

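For HepG2 HME against control, 1 of the 10 genes had an adjusted p under 0.05 (3.31% of all genes tested). This count became 2 with DESeq2 (9.11% of all genes) and without a filter beyond 1 count (5.75%), with BAG3 added, and 10 with the binomial test on summed counts. It was 0 with scaling by library size (3.58%), upper-quartile scaling (3.55%), merged copies (3.31%) and the replicate block (3.08%). Leaving out 1 library gave 0 to 3 (0.793% to 7.74% of all genes). At the unadjusted threshold it gave 2 to 5 (14.5% to 24.2%), against 4 with all libraries (22.2%). In Ls174 the adjusted count was 0 (1.18% of all genes) and became 1 with DESeq2 (3.83%) and without a filter (2.68%). It was 6 with the binomial test and 0 to 1 with a library left out (0% to 8.39%). The unadjusted count of 1 (12% of all genes) became 2 with DESeq2 (12.2%) and with library size (12%). It was 3 with the binomial test (23%), no filter (10.4%) and the replicate block (10%). With a library left out it was 1 to 2 (7.15% to 15.6%). Between untreated lines the adjusted count of 5 (23.5% of all genes) became 10 with the binomial test and 3 with merged copies (23.5%). It was 8 without HepG2 control 2 and Ls174 control 1 (HSPB1, HSPE1 and BAG3 added), and 3 to 6 with 1 library left out. Between treated lines the count of 7 stayed within 5 to 10. For the interaction, leaving out both of those libraries gave 1 adjusted and 4 unadjusted calls, and 1 library gave 1 to 4 unadjusted calls. The binomial test could not be run for the interaction. The cause of these changes was not tested. The binomial test called 63% of all genes tested in HepG2, 48.9% in Ls174 and 75.9% between untreated lines at an adjusted p under 0.05. Shares of all genes for the remaining settings are not given in this paragraph.

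No pairing by replicate number was seen: same-numbered libraries of a line had correlations of -0.15 to 0.07 in their deviations, and differently numbered ones -0.15 to 0.26. With deviations from means of 3 libraries this cannot exclude a pairing, and the block is given for its counts alone. Of the 10 genes, 6 kept the sign of their HepG2 response under each alternative run other than the binomial test, and 4 (HSPH1, HSP90AA1, HSPD1 and HSPE1, none of them called) changed it under some. In Ls174, 5 of 9 kept their sign. Scaling by library size moved the median log2 fold change of all genes in HepG2 from -0.04 to -0.20, and between treated lines from 0.01 to -0.28. Genes near the floor of 3 counts, as HSPA1A in Ls174, cannot be compared more closely at this depth.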
